A study of Mus musculus with 3 samples.

Results

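Cytosolic ribosomal protein mRNAs encode the proteins that, together with ribosomal RNA, build the large and the small subunit of the cytoplasmic ribosome. The genes were chosen by name alone, as symbols of the Rpl, Rplp and Rps series with at least 1 protein-coding transcript in GENCODE M21, and 83 of the 55536 gene rows met this rule. Of these, 7 are paralogs named after another member (Rpl3l, Rpl7l1, Rpl10l, Rpl22l1, Rpl36al, Rpl39l and Rps27l), and the other 76, called core members here, comprise 46 genes of the large and 30 of the small subunit. The libraries came from the cytosolic fraction of primary bone marrow-derived macrophages of C57BL/6J mice, all treated with 100 ng/ml Lipid A, the membrane anchor of bacterial lipopolysaccharide and a ligand of Tlr4, for 20 minutes. Sequencing covered total RNA without most ribosomal RNA in 3 biological replicates of this 1 condition, and the labels give all 3 the same donor identifier, so the spread between them may be technical. No untreated library is analysed here, and no value below measures an effect of Lipid A.

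In mammals, nearly all of these mRNAs begin with a C followed by an uninterrupted run of pyrimidines, the terminal oligopyrimidine or TOP motif. Through this motif the mTOR pathway and the RNA-binding protein Larp1 switch their translation on and off together with that of several elongation factors. The genes have also been copied back into the genome many times as processed pseudogenes, intronless copies that can keep nearly the whole mRNA sequence. The subunits are built from 1 copy of each protein per ribosome, with the acidic stalk proteins as an exception, while several paralogs are known from tissue-restricted expression.

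The libraries held 27282444, 81509889 and 37131774 estimated counts on gene rows in replicates 1, 2 and 3. Macrophage markers (Lyz2, Csf1r, Adgre1, Cd68 and Itgam) were at mean levels from 18.6 to 4579 TPM (transcript abundance per transcript length, scaled to the same sum in each library), and the 9 markers of lymphoid, neutrophil, fibroblast and erythroid cells at no more than 0.04 TPM, with 2 of them at 0 counts in every library. Transcripts of nuclear-encoded protein-coding genes held only 25.0%, 22.0% and 19.7% of all TPM in replicates 1, 2 and 3. Where libraries are compared, TPM was therefore rescaled to a sum of 1000000 over the 21888 nuclear-encoded protein-coding genes, and the result is called rescaled TPM. In bulk libraries such as these, fewer cells of a type and less RNA per cell cannot be told apart.

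The annotated 5′ ends of the members are shown first because the TOP motif lies there. RefSeq start windows (GRCm38.p6, 10 bases before to 20 bases after the annotated start) were matched by symbol for 63 of the 83 members. The capitals mark the longest run of C and T in each window of the transcribed strand. In Rpl35, Rpl14, Rps18 and Rps6 this run is long and lies at or near the annotated start, while in Rpl41 and Rpl5 it is short.
Rpl35: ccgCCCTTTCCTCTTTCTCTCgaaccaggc
Rpl14: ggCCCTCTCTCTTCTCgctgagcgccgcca
Rps18: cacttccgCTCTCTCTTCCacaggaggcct
Rps6: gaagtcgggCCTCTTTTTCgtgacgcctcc
Rpl41: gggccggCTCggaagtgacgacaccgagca
Rpl5: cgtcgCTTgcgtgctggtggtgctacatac

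These windows lie at chr2:39005112-39005141 on the minus strand for Rpl35, chr9:120571507-120571536 on the plus strand for Rpl14, and chr17:33955646-33955675 on the minus strand for Rps18. Those of Rps6, Rpl41 and Rpl5 lie at chr4:86857348-86857377 on the minus strand, chr10:128549149-128549178 on the minus strand and chr5:107900518-107900547 on the plus strand. A run of at least 7 pyrimidines, in any order of C and T, stood in the window of 30 of the 56 matched core members (53.6%), against 20.5% of the 27025 symbols of the whole RefSeq table and 21.1% of the 7345 matched coding genes with a mean of 1 TPM or more. The same run on the opposite strand, seen as 7 purines, stood in 7.14% of the core members and in 23.4% of the whole table. Of the 69 matched mitochondrial ribosomal protein genes, whose mRNAs are not known as TOP mRNAs, 13.0% held the pyrimidine run. An annotated start need not be the start used in these cells, so a window without the run says only that these letters are not in it.

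Each of the 76 core members reached at least 1 TPM in every library, as did 80 of the 83 members. Among all nuclear-encoded protein-coding genes 40.7% did so. The 3 exceptions were the paralogs Rpl3l, Rpl10l and Rpl39l. The members held 1.96%, 2.00% and 1.53% of the counts in replicates 1, 2 and 3 (mean 1.83% ± 0.262, SD, n = 3). Of the TPM of nuclear-encoded coding genes they held 9.60%, 9.73% and 8.00% (9.11% ± 0.963, SD, n = 3), the lowest share being that of replicate 3 on both scales. The median core member, at a mean of 218 TPM, stood at percentile 98.7 of the coding genes with a mean of 1 TPM or more, and 33 core members were among the 100 most abundant coding genes.

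**Figure D1:**
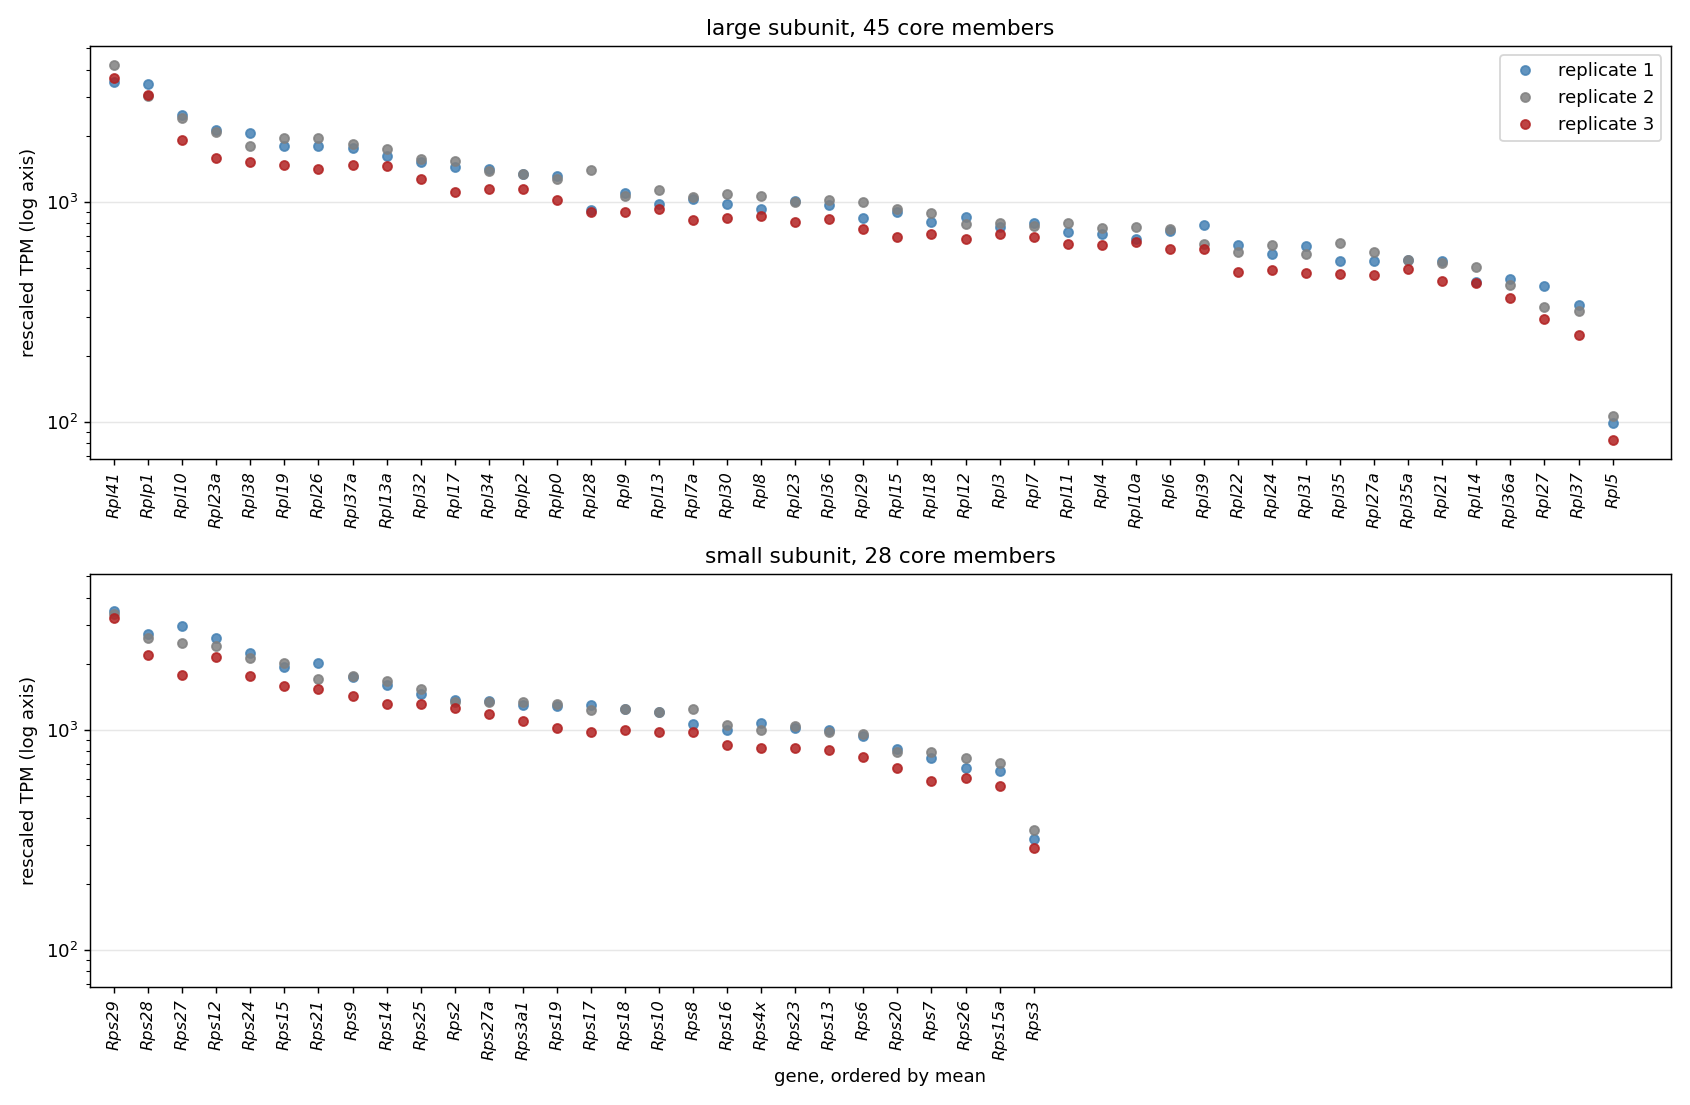
Rescaled TPM (log axis) of 45 large-subunit and 28 small-subunit core members in replicates 1, 2 and 3, each point being 1 library and genes ordered by their mean. Replicate 3 (red) is the lowest point for 71 of these 73 genes, and the mean levels run from 3806 (Rpl41) to 95.9 (Rpl5).

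The large subunit was led by 2 short mRNAs. Rpl41, which encodes a basic peptide that is among the smallest eukaryotic proteins, stood at 882, 927 and 722 TPM in replicates 1, 2 and 3. Rplp1, an acidic protein of the stalk that recruits elongation factors, stood at 859, 668 and 601 TPM. Both exceeded the median large-subunit member, at 202 TPM, in every library.

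Rpl10, Rpl23a and Rpl38 followed. Rpl10, whose protein joins the subunit late and lies near the peptidyl transferase centre, was at 622, 532 and 377 TPM in the gene table. Rpl23a, at the rim of the exit tunnel where nascent-chain factors dock, was at 530, 460 and 313 TPM. Rpl38, which mouse mutants tie to axial skeleton patterning, was at 516, 396 and 300 TPM. All 3 were lowest in replicate 3 on this scale, where 77.4% of coding genes with a mean of 1 TPM or more were, before any rescaling.

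At the low end of the large subunit the spread between genes was wider. Rpl5, which with Rpl11 carries the 5S ribosomal RNA and can bind Mdm2, was the lowest core member at 24.7, 23.3 and 16.3 TPM. Its partner Rpl11 stood at 182, 177 and 127 TPM. With the copies elsewhere in the genome summed, Rpl5 was at 701, 631 and 552 rescaled TPM and Rpl11 at 768, 851 and 685, so the size of this gap depends on how reads were divided between genes and copies. Rpl37 was at 84.6, 70.4 and 48.7 TPM and Rpl27 at 103, 73.0 and 57.8 TPM. Copies held 61.0% of the summed level of Rpl27 and its copies, and 55.3% in a second deposited quantification. Rpl27 without copies was at 414, 332 and 294 rescaled TPM, and at 415, 334 and 302 in the second quantification. With copies summed it was at 933, 952 and 779. Whether the level of the copies came from reads of Rpl27 was not tested.

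Rpl36a and Rpl14 closed the list of the 5 lowest large-subunit members. Rpl36a was at 112, 92.1 and 71.9 TPM, and Rpl14 at 109, 112 and 83.8 TPM. Within the 46 genes the highest mean was 5.30 log2 units above the lowest, a span that rests on Rpl5. With copies summed the span was 4.07, from Rpl37 to Rpl41.

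The highest small-subunit mRNAs were likewise short. Rps29, a zinc-binding protein of the subunit head, was at 868, 743 and 637 TPM. Rps28, which lies near the mRNA exit site, was at 682, 575 and 433 TPM. Rps27, a zinc-finger protein, was at 744, 548 and 350 TPM.

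Rps29 was above Rps28 and Rps27 in every library, while Rps27 was above Rps28 in replicate 1 and below it in replicates 2 and 3. Rps12 was at 658, 529 and 422 TPM in the gene table, a value that the second quantification did not share. Rps24, one of the genes mutated in Diamond-Blackfan anaemia, was at 563, 468 and 347 TPM.

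The lowest small-subunit core member was Rps3, which lines the mRNA entry channel and also has roles outside the ribosome, at 79.8, 77.7 and 57.0 TPM. The next were Rps15a at 163, 156 and 110 TPM and Rps26, which contacts the mRNA upstream of the start codon, at 168, 164 and 119 TPM. Rps3 lay below each of the other small-subunit core members in TPM in all 3 libraries. It also had the longest mean transcript length of these, at 1901 bases, and length enters the TPM. On expected counts its mean was 12003, above the 6480 of Rps15a and the 6568 of Rps26. Rps7 was at 187, 174 and 116 TPM, above Rps15a in every library and above Rps26 in replicates 1 and 2. The small-subunit mRNAs spanned 3.39 log2 units, with or without copies.

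The subunits differed in their median level within every library. The median large-subunit core member stood at 227, 220 and 154 TPM and the median small-subunit core member at 324, 281 and 198 TPM. As a difference of median log2(TPM + 0.1), large minus small, this was -0.51, -0.35 and -0.36 in replicates 1, 2 and 3 (mean -0.41 ± 0.09, SD, n = 3). The large subunit was lower in 3 of 3 libraries, and the exact two-sided sign-flip permutation test gave p = 0.25, the smallest value that 3 libraries allow. The second transcript table gave -0.54, -0.37 and -0.32. The distributions overlapped widely, since 15 of 46 large-subunit members exceeded the small-subunit median and 23 of 30 small-subunit members exceeded the large-subunit median. With expected counts divided by the full rather than the effective transcript length the difference was -0.29.

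Transcript length went with these levels. The median length was 747 bases for the large-subunit and 659 bases for the small-subunit core members. The 12 core members under 500 bases had a median of 399 TPM, the 53 members from 500 to 1000 bases 225 TPM, and the 11 members of 1000 bases or more 157 TPM. Across the 76 genes, log2 mean TPM and log2 length had a Pearson r of -0.59 and a Spearman rho of -0.52, while log2 counts and log2 length had r = 0.35 and rho = 0.41. These are descriptions over genes that share the same libraries, and length enters the TPM itself. The deposited effective lengths were shorter than the full lengths by 233, 215 and 217 bases in replicates 1, 2 and 3. For the shortest member, Rps27, with a mean length of 346 bases, that correction takes away most of the length.

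**Figure D2:**
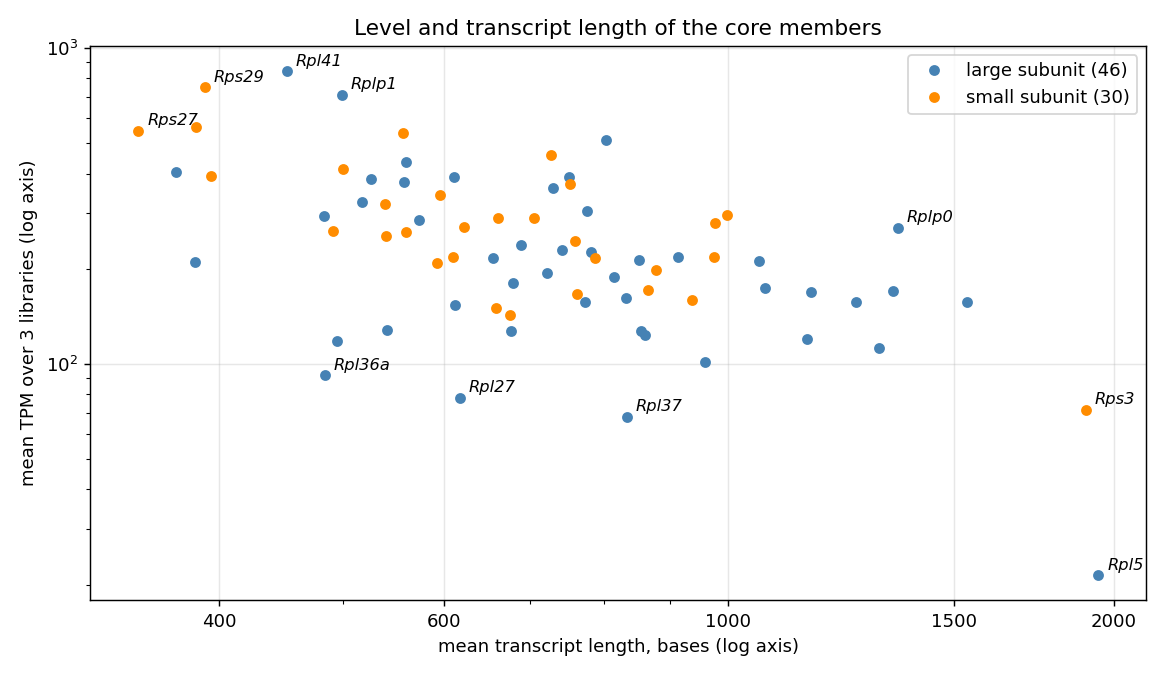
Mean TPM over 3 libraries against mean transcript length for the 76 core members, both on log axes, with the large subunit in blue and the small subunit in orange. Rpl41, Rps29 and Rplp1 stand at the short, abundant end, and Rps3 and Rpl5, the longest members, at the low end.

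Grouped by place in the ribosome, the mRNAs of neighbouring proteins stood at levels that differed within each group. In the stalk, Rplp1 was at a mean of 709 ± 134 TPM (SD, n = 3), against 285 ± 55.5 for Rplp2, 269 ± 63.3 for Rplp0 and 174 ± 40.5 for Rpl12. Rplp1 lay above the others in every library. With copies summed Rpl12 was at a mean of 954 rescaled TPM, still below the 1276 of Rplp2 and the 1205 of Rplp0. Its summed level was 1676 in the second deposited quantification, above the 1202 of Rplp2 and the 1125 of Rplp0. The place of Rpl12 in the stalk group thus depends on the quantification. Around the exit tunnel the means ran from 124 ± 27.1 TPM for Rpl35 and 127 ± 32.4 for Rpl31 to 390 ± 86.5 for Rpl19 and 434 ± 111 for Rpl23a, with Rpl39 at 153 ± 40.1, Rpl4 at 157 ± 28.3, Rpl17 at 305 ± 76.7 and Rpl26 at 385 ± 92.9. Copies held 59.8% of the summed level of Rpl35 and its copies and 51.6% of that of Rpl31, and with copies summed their means were 1377 and 1165 rescaled TPM, above the 681 of Rpl39 and the 705 of Rpl4. The place of Rpl35 and Rpl31 at the low end is thus that of the genes without their copies. In the second deposited quantification copies held 62.0% for Rpl35 and 47.9% for Rpl31. Whether the level of these copies came from reads of the members was not tested.

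In the small subunit, Rps2 and Rps3 face the mRNA entry channel together. Rps2 was at 295 ± 48.4 TPM and Rps3 at 71.5 ± 12.6 (SD, n = 3), with no overlap between them. The mean expected counts were 22205 for Rps2 and 12003 for Rps3, at mean transcript lengths of 998 and 1901 bases. At the decoding centre, Rps15 was at 414 ± 89.2 TPM and Rps23 at 215 ± 47.8. The mean of Rps23 was 962 rescaled TPM without its copies and 1374 with them summed. Rps15, which had no copies, was at 1850. In the second deposited quantification the summed level of Rps23 was 1702.5, against 1790.7 for Rps15. The size of this gap thus depends on the copies and on the quantification. Whether the level of the copies came from reads of Rps23 was not tested. Rps6, the substrate of the S6 kinases, was at 198 ± 44.6 TPM. Rps27a, which is made as a fusion with ubiquitin, was at 289 ± 52.8 TPM, and Rpl13a, known from an interferon-induced complex that silences inflammatory mRNAs, at 359 ± 62.6 TPM.

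The paralogs fell into 3 kinds of pair. Rpl36al, an autosomal relative of the X-linked Rpl36a, stood level with its partner when the partner's copies were left out. Rpl22l1, Rps27l and Rpl7l1 were present below theirs, and Rpl39l, Rpl3l and Rpl10l were at or near 0. In 6 of the 7 pairs the paralog was lower in every library.

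Rpl36al was at 104, 95.8 and 69.0 TPM against 112, 92.1 and 71.9 TPM for Rpl36a. The log2 difference was -0.11, 0.06 and -0.06 (mean -0.04 ± 0.09, SD, n = 3), within the spread between libraries. Rpl36a also has near-identical sequence elsewhere, and its 2 processed copies held 32.5% of the level of Rpl36a and copies together in the gene table. With copies summed Rpl36a was at 681, 627 and 516 rescaled TPM, above the 415, 435 and 351 of Rpl36al in every library.

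Rpl22l1, whose partner Rpl22 is needed for T cell development in mice, was at 33.0, 22.5 and 19.1 TPM against 159, 131 and 94.0 TPM for Rpl22. The log2 difference was -2.36 ± 0.15 (SD, n = 3). Rps27l, a known target of p53, was at 68.5, 62.7 and 56.8 TPM against the Rps27 levels given above, a log2 difference of -3.06 ± 0.41.

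Rpl7l1 was at 20.0, 14.8 and 12.9 TPM against 200, 171 and 137 TPM for Rpl7, a log2 difference of -3.41 ± 0.10. None of these 3 paralogs overlapped its partner in any library. Rps27l differed from its partner least in replicate 3 (-3.44, -3.13 and -2.62 in replicates 1, 2 and 3), where Rps27 was low.

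The other 3 paralogs are known from striated muscle (Rpl3l) or testis (Rpl10l and Rpl39l). Rpl39l had 2, 17 and 7 counts, and over the 3 libraries the read rate per base of Rpl39 was 961 times higher (95% Poisson interval 656 to 1470, from the paralog's counts alone). Rpl3l had 0, 0 and 1 counts, and the rate of Rpl3 was 39412 times higher (7074 to 1556684), a ratio that rests on 1 count. In the second deposited quantification Rpl3l was at 0, 0.122 and 0.213 rescaled TPM, and Rpl3 at 729, 758 and 678. Rpl10l had 0 counts, and with 3 counts per library as its upper limit Rpl10 was at least 8294-fold, 23680-fold and 7973-fold higher in replicates 1, 2 and 3. These limits use the level of Rpl10 in the gene table; in the second deposited quantification, where Rpl10 was lower and Rpl10l also had 0 counts, Rpl10 was at least 961-fold, 2685-fold and 1279-fold higher. These intervals and limits cover counting error only.

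**Figure D3:**
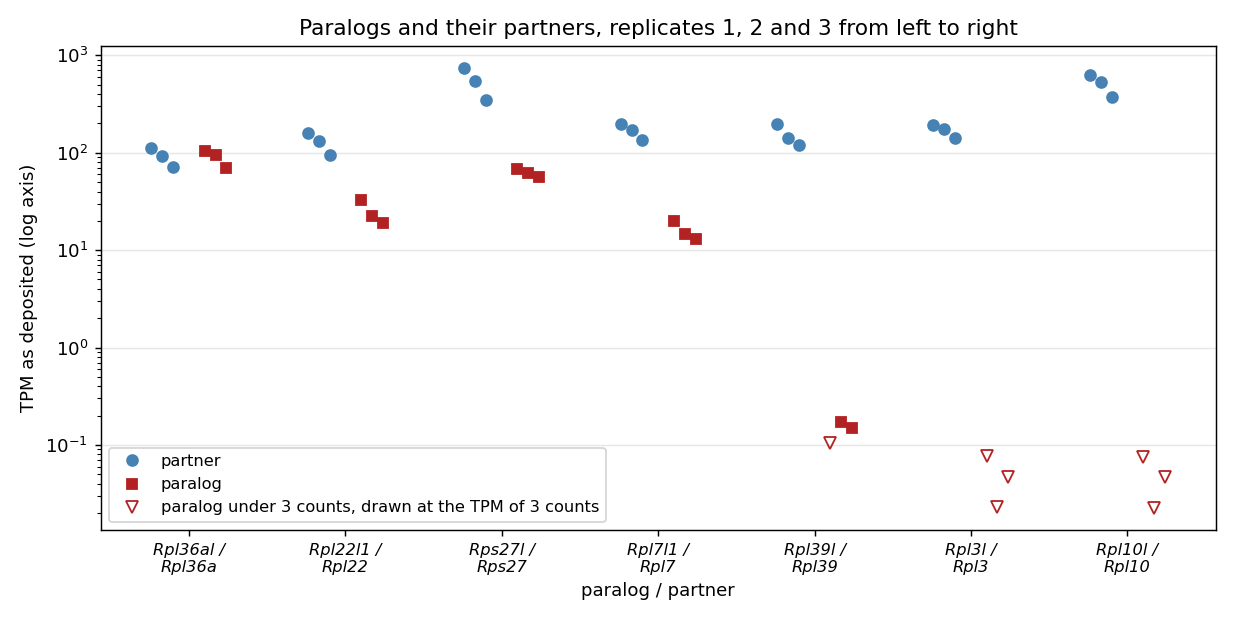
TPM as deposited (log axis) of the 7 paralogs (red squares) and their partners (blue circles), with replicates 1, 2 and 3 from left to right in each pair. Open triangles mark libraries in which the paralog had under 3 counts, drawn at the TPM that 3 counts would give. Rpl36al overlaps Rpl36a, and the other 6 paralogs lie below their partners.

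Replicate 3 was the lowest library for nearly all members. After rescaling, 74 of the 76 core members were lowest in replicate 3, comprising 44 of 46 large-subunit and 30 of 30 small-subunit members, against 31.6% of coding genes with a mean of 1 TPM or more. The exceptions were Rpl41, lowest in replicate 1, and Rplp1, lowest in replicate 2. No core member was highest in replicate 3, while 32 were highest in replicate 1 and 44 in replicate 2, and 30.4% of coding genes were highest in replicate 1. The median core member stood 0.29 log2 units lower in replicate 3 than the mean of the others (a ratio of 0.820), and the median coding gene 0.01 higher. Across core members the log2 difference ran from -0.61 to -0.07, with a median of -0.29 in each subunit. This pattern was picked out after the values were seen, and with 1 condition it is a difference between libraries only.

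Rps27 and Rpl28 varied most. Rps27 was at 2977, 2491 and 1782 rescaled TPM (SD of log2, 0.376). Rpl28 was at 917, 1398 and 898 rescaled TPM (SD 0.360), standing apart in replicate 2 rather than in replicate 3. Its processed copy Rpl28-ps1 stood at 69.3, 28.1 and 22.5 rescaled TPM in the same table. Copies held 3.60% of the summed level of Rpl28 and its copies there, and 42.1% in the second deposited quantification. With copies summed in that quantification Rpl28 was at 1725, 2139 and 1360, highest in replicate 2 and lowest in replicate 3.

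Rpl17 and Rpl27 were also among the 5 most variable. Rpl17 was at 1443, 1530 and 1106 rescaled TPM (SD 0.25). Rpl27 was at 414, 332 and 294 rescaled TPM (SD 0.249). For Rpl17 replicates 1 and 2 lay close together and replicate 3 below them, and for Rpl27 replicate 1 lay above the others. With copies summed Rpl27 was at 933, 952 and 779, where replicate 1 no longer lay above replicate 2.

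The steadiest core members were Rps29 and Rps2. Rps29 was at 3474, 3378 and 3241 rescaled TPM (SD 0.051). Rps2 was at 1376, 1337 and 1257 rescaled TPM (SD 0.067). Rpl3 and Rpl35a followed, both with an SD of 0.083, and replicate 3 was still the lowest of each.

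The median SD over core members was 0.175 on the log2 scale, against 0.0966 for coding genes with a mean of 1 TPM or more. Without replicate 3 it was 0.0587, against 0.0754 for the coding genes. The larger spread of the members thus rests on replicate 3. Without replicate 1 the medians were 0.212 for the members and 0.0800 for coding genes, and without replicate 2 they were 0.199 and 0.0829.

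The rest of the translation machinery was read beside the members. Fau, Rpsa and Rack1 encode ribosome proteins whose names fall outside the rule, and all 3 were lowest in replicate 3, with a median log2 difference of -0.29. They were abundant too, with Fau at 520, Rpsa at 142 and Rack1 at 119 TPM.

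Of 14 other mRNAs known to carry a TOP motif, 13 were lowest in replicate 3, with a median log2 difference of -0.21 and Hnrnpa1 as the exception. Eef1a1, the factor that brings aminoacyl-tRNA to the ribosome, was at 6764, 6954 and 6010 rescaled TPM, and Tpt1, the translationally controlled tumour protein, at 5389, 4741 and 4435. All 14 reached 1 TPM in all libraries, with a median of 72.9 TPM.

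Genes that make or control the ribosome without being part of it were far lower. The 19 ribosome biogenesis genes had a median of 4.17 TPM, from Ncl at 34.7 and Ubtf at 12.9 down to Bysl at 1.32, and 6 of them (31.6%) were lowest in replicate 3. The 10 genes that control ribosomal protein synthesis, among them Mtor, Larp1 and Myc, had a median of 5.25 TPM, from Eif4ebp2 at 19.0 and Larp1 at 15.1 down to Mlst8 at 2.06, and 2 (20.0%) were lowest in replicate 3, where 31.6% of coding genes with a mean of 1 TPM or more were. Every gene of both lists reached 1 TPM in all libraries. The median log2 difference of replicate 3 was -0.01 for the first list and 0.11 for the second.

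The mitochondrial ribosome, which is built from its own set of nuclear-encoded proteins, gave a separate reading. Its 78 genes had a median of 8.07 TPM, led by Mrps21 at 72.7 and Mrpl52 at 30.7 and with Mrpl19 lowest at 1.97, and 44 of them (56.4%) were lowest in replicate 3, with a median log2 difference of -0.06. Among 424 other coding genes under 1000 bases with a mean of 10 TPM or more, 54.7% were lowest in replicate 3, with a median of -0.09. Within the core members the replicate 3 difference had a Pearson r of 0.08 and a Spearman rho of 0.00 with log2 length across 76 genes.

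**Figure D4:**
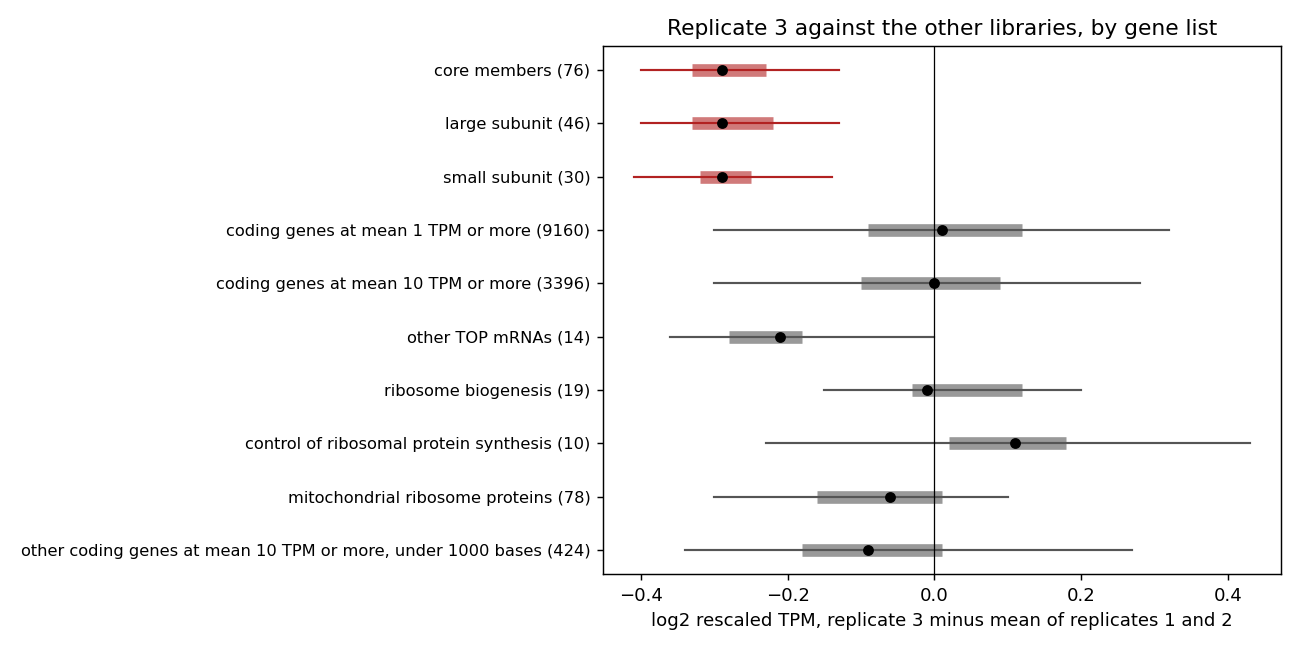
Log2 rescaled TPM in replicate 3 minus the mean of replicates 1 and 2, by gene list with the number of genes in brackets. Black points are medians, thick bars the middle 50% and thin lines the middle 90% of the genes. The core members and both subunits (red) have a median of -0.29, other TOP mRNAs -0.21, and coding genes at 1 TPM or more 0.01.

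Replicate 3 also differed in RNAs known to stay in the nucleus. Malat1 was at 1438, 1127 and 3883 rescaled TPM in replicates 1, 2 and 3, and Neat1 at 127, 107 and 427. Both were highest in replicate 3, and their part in the members' difference was not tested. The 3 coding genes outside the members whose pattern over the 3 libraries was nearest to the members' median, by Euclidean distance of log2 deviations among 3316 candidates, were Gstm1, Ebi3 and Fbrs. Gstm1 was at 404, 412 and 334 rescaled TPM. With 3 libraries many genes can share such a pattern.

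For 4 members the level depended on which deposited quantification was read. The gene table was made from alignments to the transcriptome, and a second transcript table, summed to genes here, was made from the reads directly. Over the 76 core members the median log2 difference, second minus gene table, was -0.06, -0.07 and -0.11 (mean -0.08 ± 0.03, SD, n = 3). Rpl12, Rps12, Rpl10 and Rpl5 differed by more than 2-fold, which is 5.26% of the core members against 0.633% of coding genes with a mean of 1 TPM or more.

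For each of the 4, an intronless copy on another chromosome stood higher in the second table than in the gene table. Rps12 was at 2636, 2405 and 2147 rescaled TPM in the gene table and at 69.6, 70.9 and 63.7 in the second. Its copy Rps12-ps3, annotated as protein-coding at chr19:59322290-59322783 on the plus strand, was at 55.6, 39.0 and 47.9 in the gene table and at 3047, 2735 and 2380 in the second. Member and copy thus traded places.

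Rpl12 was at 856, 793 and 676 rescaled TPM in the gene table and at 16.7, 23.2 and 25.5 in the second. Its copy Gm10275, a transcribed processed pseudogene at chr10:29698746-29699380 on the minus strand, was at 162, 134 and 141 in the gene table and at 1699, 1716 and 1408 in the second. The log2 difference of Rpl12 between the tables was -5.16 ± 0.48 (SD, n = 3) and that of Rps12 was -5.13 ± 0.09.

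Rpl10 was at 2490, 2419 and 1917 rescaled TPM in the gene table and at 257, 249 and 276 in the second. Its copy Rpl10-ps3, annotated as protein-coding at chr9:50344201-50344968 on the minus strand, was at 110, 99.8 and 71.8 in the gene table and at 2313, 2251 and 1657 in the second. In the second table Rpl10 and Rpl12 were highest in replicate 3, while 74 of the 76 core members were lowest there. Of coding genes with a mean of 1 TPM or more, 28.1% were lowest there in that table.

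For Rpl5 the copy led in both tables. Rpl5 was at 98.9, 106 and 82.7 rescaled TPM in the gene table and at 26.7, 24.7 and 21.7 in the second. Gm15500, a transcribed processed pseudogene at chr7:114705217-114706235 on the minus strand, was at 602, 525 and 469 in the gene table and at 740, 692 and 580 in the second. The place of Rpl5 as the lowest core member therefore rests on how reads were divided, since Rpl5 with its 5 copies summed to 701, 631 and 552 rescaled TPM in the gene table.

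The sequences of members and copies were aligned, since reads from an identical stretch carry no difference to divide them by. Aligned to a transcript of its member, Rps12-ps3 was identical over all of its 494 bases, Gm10275 over all of its 495 bases, Gm15500 over all of its 894 bases, and Rpl10-ps3 over the 740 bases that aligned of its 768. The member transcripts are longer, at 584 bases for Rps12, 1242 for Rpl12, 2045 for Rpl5 and 799 for Rpl10, so part of each lies outside the identical stretch. The first 60 coding bases of Rps12 and Rpl12 are given beside those of their copies, and the whole coding sequence of Rpl41, at 78 bases, beside its copy Gm10076, with the start codon in capitals.
Rps12: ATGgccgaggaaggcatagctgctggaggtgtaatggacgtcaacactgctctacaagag
Rps12-ps3: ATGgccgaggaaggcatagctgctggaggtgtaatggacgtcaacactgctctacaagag
Rpl12: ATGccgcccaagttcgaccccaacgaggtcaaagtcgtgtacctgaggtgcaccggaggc
Gm10275: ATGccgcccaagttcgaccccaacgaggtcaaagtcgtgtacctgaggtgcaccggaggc
Rpl41: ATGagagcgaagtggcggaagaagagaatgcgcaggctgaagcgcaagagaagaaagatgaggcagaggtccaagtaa
Gm10076: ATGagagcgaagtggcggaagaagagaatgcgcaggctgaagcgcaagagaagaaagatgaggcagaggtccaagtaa

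The stretches of the copies lie at chr19:59322371-59322430 on the plus strand, chr10:29699231-29699290 on the minus strand and chr14:105681869-105681946 on the plus strand (mm10), each within a single exon. Gm10076, annotated as a lincRNA, differed from Rpl41 at 2 of 383 aligned bases, none of them in the coding sequence. It was at 1798, 1613 and 1483 rescaled TPM in the gene table and at 6.93, 6.50 and 2.62 in the second, the reverse of the direction seen for Rps12. Rpl41 itself was at 3530, 4215 and 3673 in the gene table and at 3838, 4398 and 3602 in the second.

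Copies of this kind were common. Genes outside the members, away from the member's locus and at least 200 bases long, were counted as copies when at least 50% of their 31-base words occurred in the member's transcripts. This gave 295 copies, 285 of them annotated as a pseudogene type and 9 as protein-coding, and 64 of the 76 core members had at least 1 copy, with a median of 3 and a maximum of 18. The copies held 7.30% ± 0.199 (SD, n = 3) of the summed level of core members and copies in the gene table and 13.7% ± 0.489 in the second.

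With each member and its copies summed, no core member differed by more than 2-fold between the tables, and the largest difference was 0.81 log2 units, for Rpl12. The SD over core members of the log2 difference was 0.91 for the members alone and 0.20 with copies. Not every member came closer between the tables. The log2 difference, second minus gene table, went from -0.08 to 0.65 for Rpl28 when copies were summed. It went from -0.46 to 0.67 for Rpl27a and from 0.05 to -0.46 for Rpl41. On the summed levels the large-minus-small difference was -0.34 ± 0.06 (SD, n = 3) in the gene table and -0.33 ± 0.09 in the second, negative in 3 of 3 libraries in both. Of the 76 summed levels, 75 were lowest in replicate 3 in the gene table and 76 in the second. Of coding genes with a mean of 1 TPM or more, without copies summed, 31.6% and 28.1% were. Summing was chosen after the difference between the tables was seen.

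**Figure D5:**
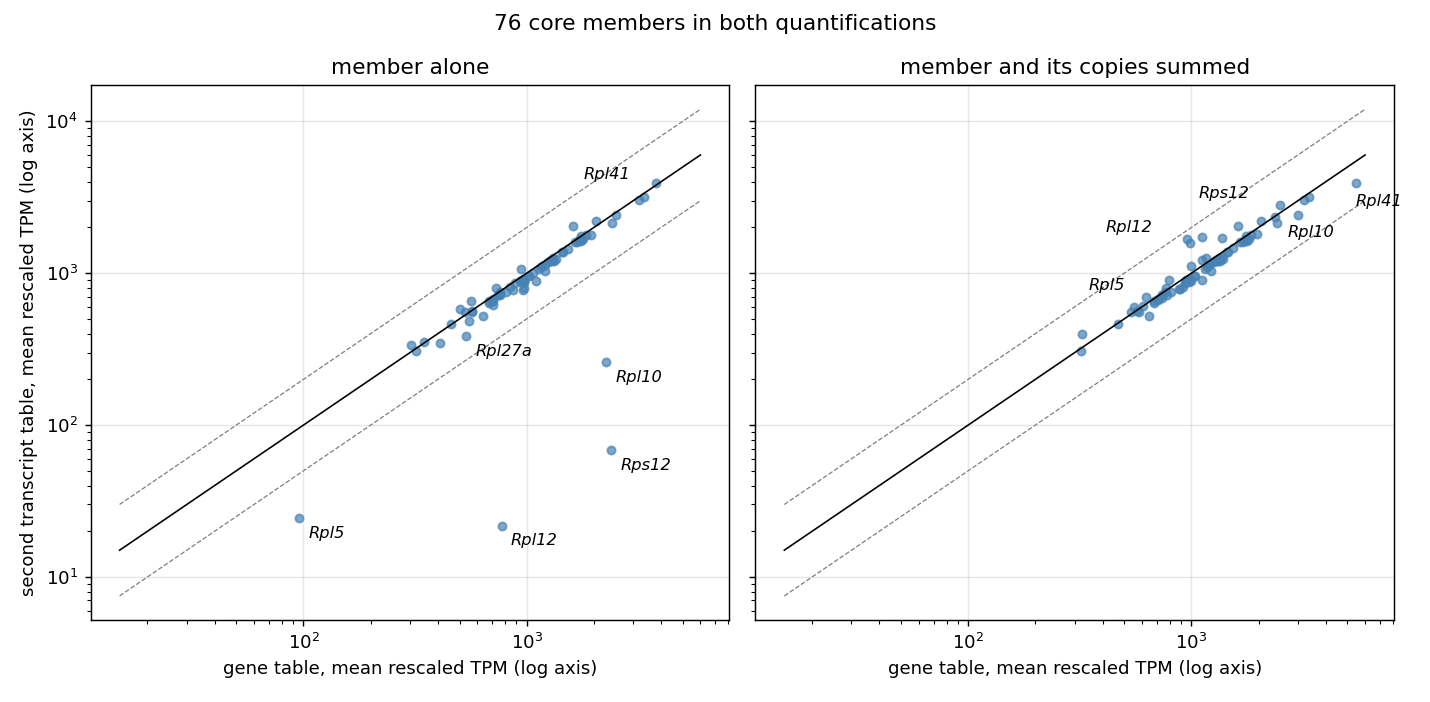
Mean rescaled TPM of the 76 core members in the second transcript table against the gene table, both on log axes, for the member alone (left) and for the member with its copies summed (right). The solid line marks equality and the dashed lines a 2-fold difference. Rpl12, Rps12, Rpl10 and Rpl5 lie below the lower dashed line on the left, and no point lies outside the dashed lines on the right.

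Without copies summed, Rpl27a had the next largest difference, and it did not reach 2-fold. It was at 542, 595 and 468 rescaled TPM in the gene table and at 410, 420 and 334 in the second, a log2 difference of -0.46 ± 0.05 (SD, n = 3). Its copy Gm7536, whose aligned transcript was identical over all of its 444 bases, was at 501, 483 and 374 in the gene table. In the second table Gm7536 was at 1278, 1339 and 938. The levels of Rpl27a and Gm7536 in the gene table were close in every library. With its 4 copies summed, Rpl27a was at 1043, 1079 and 843 in the gene table and at 1690, 1760 and 1273 in the second. The log2 difference was then 0.67 ± 0.06 (SD, n = 3), so summing reversed its sign.

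Named pseudogenes alone, the 288 genes called after 58 of the core members with a -ps suffix, held 1.25% ± 0.0208 (SD, n = 3) of the counts of core members and named pseudogenes in the gene table and 6.47% ± 0.227 in the second. The intervals deposited with the gene table did not show this uncertainty. Their upper bound exceeded the lower by a factor of 1.05, 1.03 and 1.04 for Rps12 and of 1.06, 1.03 and 1.06 for Rpl12, close to the core medians of 1.06, 1.03 and 1.06. What level these intervals cover is stated in none of the sources used here.

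Retained-intron transcripts, which keep an intron and are annotated as non-coding, were read beside the background. In the first transcript table the median share of retained-intron transcripts was 0.142% of a core member's TPM, against 0.551% for coding genes with a mean of 1 TPM or more, and 7 core members exceeded 10%, where 11.0% of those coding genes did. The highest were Rps20 at 91.7%, 90.7% and 90.3%, Rps16 at 86.1%, 87.8% and 88.4%, and Rpl15 at 43.2%, 45.0% and 38.9%. In the second table the means were 92.1%, 92.1% and 27.3%, so Rps20 and Rps16 stood apart in both.

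Transcripts annotated as targets of nonsense-mediated decay, the pathway that degrades mRNAs with an early stop, exceeded 10% in 5 core members, and 7.58% of coding genes exceeded that share. Among these, Rpl12 had 43.8%, 26.4% and 31.5% of its TPM on them, and Rpl13a 33.3%, 16.4% and 25.2%. In the second table the means were 60.4% and 33.0%. The share of Rpl12 spread widely between libraries and is divided from a total that the tables do not share. Processed transcripts, a further non-coding class, exceeded 10% in 2 core members, against 9.32% of coding genes. These were Rps23, at 52.0%, 41.2% and 45.2%, and Rpl35, at 13.3%, 29.7% and 20.3%, both named after their values were seen.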

How the data were processed

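Total RNA depleted of ribosomal RNA from 3 libraries of 1 condition was quantified by the authors on mm10 with GENCODE M21, per the notes deposited with each library, with tools, versions and strand not given in the sources used here. Gene and first transcript tables, as deposited, hold expected counts and TPM. The second transcript table, deposited with estimated counts and TPM, was summed to genes through its own identifiers. The bounds deposited with the TPM values are scores of unstated level. Rows that name no gene (0.402%, 0.108% and 0.122% of counts in replicates 1, 2 and 3) were left out. Rescaled TPM sums to 1000000 over nuclear-encoded coding genes. Levels were compared as log2(TPM + 0.1) within libraries and spread as the SD of log2(rescaled TPM + 1). For alternatives, rounded expected counts were scaled with TMM (edgeR 4.0.16, filterByExpr with a minimum count of 10, prior count 2) and DESeq2 1.42.0 size factors, with no test between groups. Python 3.11.15, pandas 2.3.3 and scipy 1.17.1 were used, and the spread and lowest-library counts were tested on simulated data.

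Named with values were the 5 highest and 5 lowest core members of each subunit, both genes of each pair, the 5 most and 3 least variable core members, the 5 with the largest difference between tables, the 3 with the largest retained-intron and decay shares, and fixed role groups and lists. A planned pair of Rps4l and Rps4x was left out because Rps4l is no member. The members and lists were chosen with earlier results of these data known. Some genes that this rule would name are not reported here.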

Additional observations from a re-analysis of the deposited data

How the results depend on the processing

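Of 74 recomputed values, 62 kept their direction and stayed within 1.5 times (counts) or 1 SD (other values). The share of counts held by the members was 1.44% with the second table. The large-minus-small difference was -0.56 with the paralogs included and -0.29 with counts per full length, and it was negative under every alternative run. The median SD of the members was 0.325 on TPM as deposited, and leaving out 1 library gave 0.0587 to 0.212. The number of members highest in replicate 1 was 66 on TPM as deposited, where 81.7% of coding genes were. It was 17 after TMM (34.6%) and 20 with DESeq2 size factors (36.3%), so that count depends on the scale. With 1 library left out it was 32 to 75. The 75 came from leaving out replicate 2, which compares replicates 1 and 3 only and so restates the low place of replicate 3. The number lowest in replicate 3 was between 74 and 76 on every scale tried over the 76 core members. Of coding genes with a mean of 1 TPM or more, 31.6% were lowest there on rescaled TPM and 77.4% on TPM as deposited. That share was 39.1% after TMM, 39.1% with DESeq2 size factors and 28.1% in the second table. All 64 core members of 500 bases or more were lowest there on rescaled TPM. These alternatives, and the summing of copies, were chosen after seeing the data. The median difference between tables was -1.45 on TPM as deposited. Summing copies took the members more than 2-fold apart from 4 to 0. The share of named pseudogenes was 6.47% in the second table. Leaving out replicate 2 raised the paralogs below their partner from 6 to 7. No paired analysis was possible because there is 1 group. Depth limits mainly Rpl3l, Rpl10l and Rpl39l, with 26 or fewer counts over all libraries.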
